A study of Homo sapiens with 2 samples.

Results

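The genes described here encode 10 secreted plasma proteins that visceral endoderm and fetal liver are known to make, namely AFP, ALB, TTR, FGA, FGB, FGG, TF, SERPINA1, RBP4 and AHSG. They were chosen by name for their difference between the WT and MEIS2-/- libraries in earlier results of these data, so their fold changes are given as a description and not as a test. Of the 10 genes, 9 were among the 17397 genes analysed by NCBI Gene number, and SERPINA1 was not analysed here. A minimum of 1 FPKM in at least 1 library was met by 7 of the 9, against 13075 of all genes.

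The RNA-Seq compared 2 libraries, 1 from WT cells and 1 from MEIS2-/- cells, both derived from H1, an established human embryonic stem cell line, and collected on day 4 of hematopoietic differentiation. Both cultures were given 50 ng/ml activin A together with 40 ng/ml BMP4 over the first 2 days. They then received 40 ng/ml VEGF with 50 ng/ml bFGF over the next 2 days. MEIS2 encodes a homeodomain cofactor of HOX and PBX proteins, and the MEIS2-/- cells came from a clone edited by CRISPR/Cas9 and grown from a single cell, which the labels do not name. The deletion, the clone and the culture cannot be told apart as sources of a difference. MEIS2 itself was at 10.85 FPKM in the WT library and 3.44 FPKM in the MEIS2-/- one, 31.7% of the WT level. FPKM scales the fragments of a gene by transcript length and by the library's mapped total, so levels can be compared between genes. Sequencing depth cannot be read from such values, and since each genotype was sequenced once, differences carry neither a replicate error nor a p-value. RNA was taken from whole cultures, in which more cells of a type and more RNA per cell cannot be told apart.

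Visceral endoderm is the outer epithelium of the early embryo that becomes the lining of the yolk sac. Before the liver forms, it takes over several tasks that hepatocytes have later, taking up nutrients and secreting carrier proteins, lipoproteins and clotting factors. AFP is its best known product, and HNF4A is among the factors that liver and visceral endoderm share. Albumin, the main plasma protein of the adult, follows later and is mostly a liver product.

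Each of the 9 genes had a higher FPKM in MEIS2-/- cells than in WT cells. Of the 7 genes that met the minimum, 7 were at least 2-fold higher and 0 were at least 2-fold lower, where 7.84% of all genes compared were at least 2-fold higher and 7.97% at least 2-fold lower. The difference belongs to how these genes were chosen, so nothing is read from that count. Their log2 fold changes, computed as MEIS2-/- over WT after adding 0.1 FPKM, ran from 1.20 for FGA to 4.34 for FGB, with a median of 3.26. The median of all genes compared was 0.12. AFP, TTR, FGG, TF and RBP4 were below 1 FPKM in WT cells and met the minimum only through the MEIS2-/- library. Of the 518 genes that met it in that way, 65.1% were at least 2-fold higher. FGA and FGB were above 1 FPKM in both libraries, as were 12025 genes, of which 5.72% were at least 2-fold higher. RBP4, at 1.40 FPKM, and TF, at 1.16 FPKM, lay just inside the minimum in MEIS2-/- cells. AHSG, at 0.17 FPKM, and ALB, at 0.11 FPKM, lay well outside it.

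The levels were modest in both libraries. The 9 genes together summed to 7.21 FPKM in the WT library and 69.88 FPKM in the MEIS2-/- one. FGB alone made up 69.4% of the increase in this sum, and without FGB the sum was 5.05 FPKM in the WT library and 24.22 FPKM in the MEIS2-/- one. Ordered by level among all 17397 genes, FGB went from position 10948 in WT cells to position 1787 in MEIS2-/- cells. TTR went from 14011 to 8621 in the same order and AFP from 14236 to 9580. Ordered by log2 fold change among the 13075 genes compared, FGB ranked 7, TTR 21, FGG 24 and AFP 37. TF ranked 234, RBP4 577 and FGA 707. With 0.1 FPKM added, the 7 genes thus fall into a group of 4 with at least 8-fold differences and a group with smaller ones. With 1 FPKM added, FGB alone stayed at least 8-fold higher.

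At the centre of the results are 2 gene groups on chromosome 4, the albumin group with ALB and AFP and the fibrinogen group with FGB, FGA and FGG. Within each group the genes differed by unequal folds between the libraries, so the 250 bases before the start of each are shown. The sequences come from RefSeq on GRCh38.p14, matched by symbol, and are read 5′ to 3′ on the strand of the gene. Of the 10 genes, 9 had an entry, with 14 starts in all, and TTR had none. Where a gene has several starts, the most upstream is shown. Capitals mark words searched on both strands that are known cores of binding sites for liver-type factors, MEIS proteins or the TATA-binding protein.
ALB, chr4:73404037-73404286, plus strand: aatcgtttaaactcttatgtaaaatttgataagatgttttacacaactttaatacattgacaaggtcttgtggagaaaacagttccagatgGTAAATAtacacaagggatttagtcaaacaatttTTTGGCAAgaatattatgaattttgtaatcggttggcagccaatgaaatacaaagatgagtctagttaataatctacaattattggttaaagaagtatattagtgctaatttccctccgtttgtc
AFP, chr4:73435971-73436220, plus strand: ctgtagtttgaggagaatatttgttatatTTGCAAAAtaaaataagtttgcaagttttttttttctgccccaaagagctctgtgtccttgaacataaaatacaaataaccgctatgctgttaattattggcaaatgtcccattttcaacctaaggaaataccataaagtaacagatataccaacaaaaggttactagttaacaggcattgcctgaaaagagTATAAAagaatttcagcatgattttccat
FGB, chr4:154562730-154562979, plus strand: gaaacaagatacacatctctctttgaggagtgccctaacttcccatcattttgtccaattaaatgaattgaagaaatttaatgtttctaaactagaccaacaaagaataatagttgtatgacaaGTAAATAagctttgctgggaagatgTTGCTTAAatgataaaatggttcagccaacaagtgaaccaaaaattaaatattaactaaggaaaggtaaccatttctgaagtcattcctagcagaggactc
FGA, chr4:154590743-154590992, minus strand: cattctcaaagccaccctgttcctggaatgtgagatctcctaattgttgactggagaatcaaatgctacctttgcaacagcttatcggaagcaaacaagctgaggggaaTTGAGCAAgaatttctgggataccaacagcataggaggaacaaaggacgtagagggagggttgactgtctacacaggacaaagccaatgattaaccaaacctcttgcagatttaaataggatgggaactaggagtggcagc
FGG, chr4:154612657-154612906, minus strand: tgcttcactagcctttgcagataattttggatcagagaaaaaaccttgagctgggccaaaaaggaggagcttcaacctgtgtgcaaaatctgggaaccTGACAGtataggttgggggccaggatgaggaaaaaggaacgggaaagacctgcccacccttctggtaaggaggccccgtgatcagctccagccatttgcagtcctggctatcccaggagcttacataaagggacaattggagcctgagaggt

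The words were TATAAA, the FOXA cores TGTTTAC and TATTTAC, the C/EBP form TTGCNNAA, the HNF4 form CAAAGNNCA and the MEIS core TGACAG. Words for HNF1 factors, which also act on liver-type genes, were not searched, so unmarked bases may hold other sites. None of these words overlapped another in the windows printed. ALB, AFP, FGB and FGA each held 1 C/EBP form in these windows, and FGG held none. The only word found in the FGG window was the MEIS core. Among the 9 genes with an entry, 7 held the C/EBP form before at least 1 start (AFP, AHSG, ALB, FGA, FGB, RBP4 and TF), where 11% of 27305 genes did. The TATA word was found in AFP and RBP4, and in 13% of all genes. TATTTAC was found in ALB and FGB, where 2.95% of all genes held it, and the HNF4 form only in AHSG, where 5.43% did. The MEIS core was in 1 of the 9 genes, FGG, against 15.6% of all genes. TGTTTAC was in none of the 9, and 3.66% of all genes held it. Such matches describe letters and not binding, and the windows that hold a C/EBP form include those of ALB, with little mRNA in either library, and of FGB, with the largest difference.

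Fibrinogen is the soluble precursor of the fibrin clot and is built from an alpha, a beta and a gamma chain, encoded by FGA, FGB and FGG. FGB was at 2.16 FPKM in the WT library and 45.66 FPKM in the MEIS2-/- one, a 21.1-fold ratio and a log2 fold change of 4.34. FGG was at 0.35 FPKM in the WT library and 4.85 FPKM in the MEIS2-/- one, with a log2 fold change of 3.46. FGA was at 3.13 FPKM in the WT library and 7.31 FPKM in the MEIS2-/- one, a 2.34-fold ratio. The finished protein holds the chains in equal numbers, but their mRNA levels were unequal in both libraries and differed by unequal folds. The order of the levels was FGA, FGB, FGG in WT cells and FGB, FGA, FGG in MEIS2-/- cells. The FPKM of FGB was 0.690 times that of FGA in WT cells and 6.25 times that of FGA in MEIS2-/- cells. FGG stood at 0.112 times the level of FGA in WT cells and 0.663 times in MEIS2-/- cells. FGB to FGG changed less, from a ratio of 6.17 to one of 9.41. The genes flanking the group, PLRG1, which encodes a splicing factor, and LRAT, which encodes the enzyme that esterifies retinol, differed less. PLRG1 was at 11.58 FPKM in the WT library and 13.23 FPKM in the MEIS2-/- one, and LRAT at 0.69 and 1.33 FPKM.

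ALB and AFP are neighbours that arose from a common ancestor gene, together with AFM, which encodes afamin, and GC, which encodes the vitamin D binding protein. AFP, the main carrier protein of embryonic plasma, was at 0.32 FPKM in the WT library and 3.91 FPKM in the MEIS2-/- one, a 12.2-fold ratio with a log2 fold change of 3.26. ALB was at 0.03 FPKM in the WT library and 0.11 FPKM in the MEIS2-/- one. Since the values are rounded to 2 decimals, the ratio of 3.67 for ALB could lie anywhere from 3.00 to 4.60 by rounding alone, whereas rounding raises that of AFP to 12.4 at most. AFM, next to AFP, was at 0.10 FPKM in the WT library and 0.14 FPKM in the MEIS2-/- one, and GC at 0.14 and 0.10 FPKM. Of the 4 genes of the family, AFP was thus the one with a level above 1 FPKM, and only in MEIS2-/- cells. ANKRD17, on the other side of ALB, was at 11.50 FPKM in the WT library and 12.19 FPKM in the MEIS2-/- one. AFP is known to be repressed in the adult liver by ZHX2 and ZBTB20. ZHX2 was at 9.94 FPKM in the WT library and 28.28 FPKM in the MEIS2-/- one, higher in the library with more AFP, and ZBTB20 was at 0.10 and 0.06 FPKM.

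**Figure D1:**
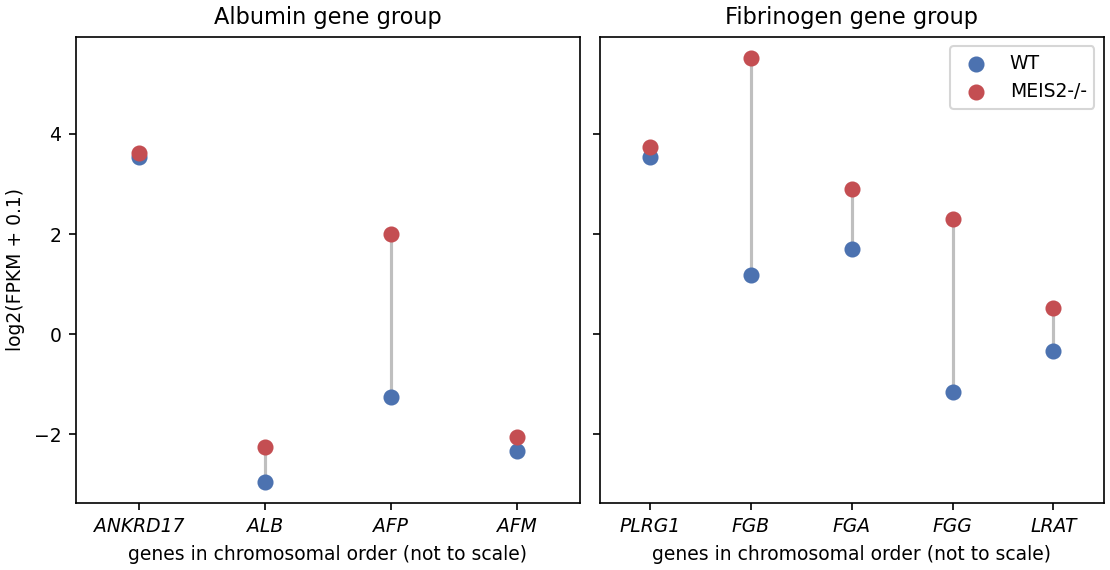
Log2(FPKM + 0.1) in the WT and MEIS2-/- libraries for the genes of the albumin group (left) and the fibrinogen group (right) with their flanking protein-coding genes, in chromosomal order and not to scale. In the albumin group AFP alone has points far apart, at 0.32 and 3.91 FPKM, and in the fibrinogen group FGB and FGG are further apart than FGA between them.

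TTR, or transthyretin, carries thyroxine and, bound to RBP4, retinol. TTR was at 0.38 FPKM in the WT library and 5.31 FPKM in the MEIS2-/- one, with a log2 fold change of 3.49. RBP4, the retinol binding protein, was at 0.50 FPKM in the WT library and 1.40 FPKM in the MEIS2-/- one, with a log2 fold change of 1.32. The partners that form 1 complex in plasma therefore differed by unequal folds, with TTR at 0.76 times the level of RBP4 in WT cells and 3.79 times in MEIS2-/- cells. STRA6, the receptor that takes up retinol from RBP4, was at 29.20 FPKM in the WT library and 23.05 FPKM in the MEIS2-/- one. The neighbours of TTR are DSG2, a desmosomal cadherin, at 30.72 FPKM in the WT library and 28.25 FPKM in the MEIS2-/- one, and B4GALT6, a galactosyltransferase, at 2.81 and 8.43 FPKM. B4GALT6 was the 1 gene at least 2-fold higher among the 7 flanking protein-coding genes that could be compared, whose median log2 fold change was 0.42. None of these 7 was at least 2-fold lower, and 6 further flanking genes were below 1 FPKM in both libraries.

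TF, or transferrin, carries iron in plasma. TF was at 0.24 FPKM in the WT library and 1.16 FPKM in the MEIS2-/- one, which differ by 1.89 on the log2 scale. SRPRB, its neighbour, which encodes a subunit of the signal recognition particle receptor, was at 8.54 and 12.66 FPKM. TFRC, the receptor that takes up iron-loaded transferrin, was lower in MEIS2-/- cells, at 14.64 FPKM in the WT library and 8.41 FPKM in the MEIS2-/- one. TFR2, a second transferrin receptor, was at 1.16 and 0.82 FPKM. Of 13 genes compared from a list of iron and retinol partners, 1 was at least 2-fold higher, STEAP3, a ferrireductase, at 3.12 FPKM in the WT library and 9.42 FPKM in the MEIS2-/- one. The 2 that were at least 2-fold lower were SLC40A1, the iron exporter ferroportin, at 13.46 and 3.92 FPKM, and CRABP2, a retinoic acid binding protein, at 422.99 and 125.80 FPKM. The median of this list was -0.21, against 0.12 for all genes. FCGRT, which encodes the receptor that rescues albumin and IgG from breakdown, was at 20.23 FPKM in the WT library and 20.92 FPKM in the MEIS2-/- one.

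AHSG, or fetuin-A, binds calcium phosphate in fetal plasma and was at 0.10 FPKM in the WT library and 0.17 FPKM in the MEIS2-/- one. Its relative and neighbour FETUB was listed at 0 in WT cells and at 0.01 FPKM in MEIS2-/- cells. AHSG and ALB were the lowest of the 9 genes in both libraries, and with the depth unknown the counting error of such low values cannot be given. SERPINA1, or alpha-1 antitrypsin, was not analysed here. SERPINA6 and SERPINA11, the serpin genes on either side of it, were at or below 0.04 FPKM in both libraries, and SERPINA3, another gene of this cluster, was listed at 0 in both.

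Among the other secreted proteins of liver and yolk sac, the picture was mixed. Of 22 genes of coagulation and fibrinolysis, 19 were listed and 10 could be compared. Of these 10, 5 were at least 2-fold higher and 1 was at least 2-fold lower, against 7.84% and 7.97% of all genes compared. In WT cells 4 of the 10 were below 1 FPKM and met the minimum only through the MEIS2-/- library. F2, PROC and SERPINA5 were among these 4. Of all genes that met the minimum in that way, 65.1% were at least 2-fold higher. F2, which encodes prothrombin, whose active form cuts fibrinogen, was at 0.16 FPKM in the WT library and 3.77 FPKM in the MEIS2-/- one, with a log2 fold change of 3.90. HABP2, a plasma serine protease, was at 5.42 and 23.61 FPKM, and SERPINF2, the inhibitor of plasmin, at 2.31 and 7.54 FPKM. PROC, the anticoagulant protein C, was at 0.10 FPKM in the WT library and 1.11 FPKM in the MEIS2-/- one, and its inhibitor SERPINA5 at 0.42 and 1.21 FPKM. The lower gene was F12, the factor that starts contact activation, at 5.87 FPKM in the WT library and 1.01 FPKM in the MEIS2-/- one. PLG, which encodes plasminogen, stayed at 0.08 and 0.03 FPKM. With the 4 genes below 1 FPKM in WT cells included, the median log2 fold change of the list was 0.94. It was 3.26 for the 7 plasma protein genes and 0.12 for all genes. Genes of clot formation and of its restraint were both among the 5.

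Genes of carrier and acute phase proteins mostly stayed below the minimum. Of 24 genes listed, 18 were below 1 FPKM in both libraries. Of the 6 compared, 2 met the minimum only through the MEIS2-/- library. Among these 6, 1 was at least 2-fold higher and 1 at least 2-fold lower, with a median of 0.79. The higher gene was ITIH4, at 0.45 FPKM in the WT library and 1.03 FPKM in the MEIS2-/- one, and the lower was A1BG, at 15.58 and 5.79 FPKM. Of 13 complement genes listed, 6 were below 1 FPKM in both libraries. Of 7 complement genes compared, 0 were at least 2-fold higher and 2 were at least 2-fold lower, with a median of -0.56. These were C3, the central component of the cascade, at 4.97 FPKM in the WT library and 1.11 FPKM in the MEIS2-/- one, and C2, at 1.73 and 0.49 FPKM. SERPING1, the inhibitor of C1, had the highest level of the list, at 55.44 and 44.30 FPKM.

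Genes of mature hepatocyte function were mostly at or near 0. Of 22 hepatocyte enzyme and receptor genes listed, 17 were below 1 FPKM in both libraries. Of the 5 compared, 2 were at least 2-fold higher and 1 was at least 2-fold lower, with a median of 0.20. The 2 higher genes were below 1 FPKM in WT cells and met the minimum only through the MEIS2-/- library. TDO2, which starts the breakdown of tryptophan, was at 0.78 FPKM in the WT library and 5.77 FPKM in the MEIS2-/- one. ASGR1, a subunit of the receptor that clears desialylated plasma proteins, was at 12.47 and 3.72 FPKM. CYP3A7, the typical cytochrome of fetal liver, was at 0.06 FPKM in the WT library and 0.07 FPKM in the MEIS2-/- one, beside the ALB values of 0.03 and 0.11 FPKM. Defining markers of liver cells, ALB and CYP3A7 among them, were thus near 0 in both libraries.

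Of the genes of yolk sac endoderm other than plasma proteins, 19 were listed and each met the minimum. These genes are not all particular to that tissue, and CDH1 and EPCAM among them are general epithelial genes. In both libraries 12 of the 19 reached 1 FPKM. The other 7, such as MTTP, were below it in WT cells and met the minimum only through the MEIS2-/- library. Of the 19, 14 were at least 2-fold higher in the MEIS2-/- library, with 0 at least 2-fold lower, with a median of 1.58. This list overlaps those examined in earlier results of these data and gives no independent support. APOA1, the main apolipoprotein of high density lipoprotein, was at 401.38 FPKM in the WT library and 879.13 FPKM in the MEIS2-/- one, far above every plasma protein gene described here. MTTP, which loads lipid onto apolipoprotein B, was at 0.08 and 5.05 FPKM, and APOA2 at 6.10 and 44.54 FPKM. VIL1, a protein of microvilli, was at 5.06 FPKM in the WT library and 20.05 FPKM in the MEIS2-/- one. Other genes of the list differed less, such as AMN, a partner of the endocytic receptor cubilin, at 14.65 and 22.90 FPKM. APOE, the most abundant gene of the list, was at 2011.12 FPKM in the WT library and 2036.74 FPKM in the MEIS2-/- one.

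The transcription factors known to act on liver-type genes differed unequally. Of 15 factors compared, 4 were at least 2-fold higher and 2 at least 2-fold lower, with a median of 0.19. HNF4A, a nuclear receptor, was at 6.40 FPKM in the WT library and 29.08 FPKM in the MEIS2-/- one, and FOXA1 at 2.29 and 10.22 FPKM. CEBPA was at 2.67 FPKM in the WT library and 7.02 FPKM in the MEIS2-/- one, and ZHX2 is described above. FOXA2 was at 43.06 FPKM in the WT library and 49.12 FPKM in the MEIS2-/- one, FOXA3 at 15.21 and 11.30 FPKM, GATA4 at 71.37 and 65.34 FPKM, and GATA6 at 72.52 and 55.42 FPKM. The lower factors were HHEX, at 18.74 and 4.17 FPKM, and PROX1, at 1.08 and 0.24 FPKM, both known from the first steps of liver bud formation. FOXA2, GATA4 and GATA6, the most abundant of the factors named here, were therefore among those that differed least.

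Genes of the machinery that moves proteins into and out of the endoplasmic reticulum, which every secreted protein needs, differed little. Of 26 compared, 0 were at least 2-fold higher and 1 was at least 2-fold lower, with a median of -0.01. The lower gene was SEC24D, a coat protein of vesicles that leave the endoplasmic reticulum, at 29.14 FPKM in the WT library and 12.38 FPKM in the MEIS2-/- one. HSPA5, the main chaperone there, was at 225.47 and 219.26 FPKM.

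Markers of other cell types differed between the libraries together with the plasma protein genes. Of 10 amnion and trophoblast genes compared, 7 were at least 2-fold higher in MEIS2-/- cells and 0 at least 2-fold lower. Of these 10, 2 were below 1 FPKM in WT cells and met the minimum only through the MEIS2-/- library. The summed level of the 14 listed was 446.32 FPKM (WT) and 500.94 FPKM (MEIS2-/-). HAND1, lower in MEIS2-/- cells, made up most of both sums, at 357.53 FPKM (WT) and 265.24 FPKM (MEIS2-/-). Among the genes of this list reaching 5 FPKM in either library, KRT7, GABRP and IGFBP3 had the largest log2 fold changes. The trophectoderm factors CDX2, at 4.83 FPKM in the WT library and 21.24 FPKM in the MEIS2-/- one, and TFAP2C, at 10.41 and 68.29 FPKM, were also higher, and GATA3 was at 55.06 and 55.40 FPKM. CGA, CGB3, GCM1 and ELF5 were the 4 genes of the list below 1 FPKM in both libraries. Of 6 pluripotency genes compared, 4 were at least 2-fold higher (POU5F1, NANOG, PRDM14 and ZFP42), and the summed level of the 7 listed was 539.19 FPKM (WT) and 1840.39 FPKM (MEIS2-/-). SOX2 was at 0.09 FPKM in the WT library and 0.15 FPKM in the MEIS2-/- one. Of 13 hematopoietic and endothelial genes compared, 10 were at least 2-fold lower, led by ETV2 and KDR, and the summed level of the 15 listed was 738.76 FPKM (WT) and 198.06 FPKM (MEIS2-/-). The part of these cell types in the plasma protein values was not tested.

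The genes whose pair of levels lay nearest to that of FGB, by distance on the log2(FPKM + 0.1) scale over the 2 libraries, were IRX6, TRIML2, GSTA2, HPGD and IGFBP3. IRX6 was nearest, at 1.64 FPKM in the WT library and 57.37 FPKM in the MEIS2-/- one. GSTA2, a glutathione transferase, was at 4.58 and 43.22 FPKM, and HPGD, which inactivates prostaglandins, at 4.66 and 42.32 FPKM. With 2 libraries this likeness rests on 2 values per gene.

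The differences of the 5 genes below 1 FPKM in WT cells depended on the pseudocount. With 1 FPKM added in place of 0.1 FPKM, the log2 fold change of TF was 0.80 and that of RBP4 was 0.68, both short of 2-fold. Under the same setting AFP was at 1.90, TTR at 2.19 and FGG at 2.12, and only FGB, at 3.88, was still at least 8-fold higher. AFP, TTR, FGA, FGB and FGG were at least 2-fold higher under each pseudocount and library scaling tried, with FGA the closest to the limit, at 1.01.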

How the data were processed

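RNA-Seq libraries of WT and MEIS2-/- H1-derived cells at day 4, 1 per genotype, were prepared from Trizol-extracted RNA and sequenced by BGI. The authors deposited 1 FPKM value per gene and library, rounded to 2 decimals, under NCBI Gene numbers with the RefSeq transcripts of each gene. The submitters' processing notes name BWA, Bowtie and RSEM and the genome build hg19, and versions are not given in the sources used here. FPKM is relative to all mapped fragments, so large changes in a few abundant genes move the values of the others.

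Of 17397 genes, 17365 were matched to a symbol in the RefSeq table, which also gave the order of neighbouring genes. All genes together came to 447542 FPKM for WT and 440651 FPKM for MEIS2-/-. To look for steps of whole reads, the smallest FPKM of single-transcript genes were multiplied by transcript length and compared with multiples of a common unit. Agreement, on a scale where 1 is complete, was at best 0.224 in WT cells and 0.300 in MEIS2-/- cells, so no reads were recovered and the depth stayed unknown. A value of 0 was given to 832 genes (WT) and 614 genes (MEIS2-/-).

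Fold changes are differences of log2(FPKM + 0.1), a scale that shrinks those of weakly expressed genes, and cover genes reaching 1 FPKM in either library. The median log2 fold change of all genes compared was 0.12, so fold changes can be read relative to that shift. A difference of 2-fold was counted, and no test was possible with 1 library per genotype. The computation was tested on simulated data. Words were searched in the 250 bases before RefSeq starts on GRCh38.p14, a build other than that of the FPKM tables.

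The plasma protein genes and the lists were chosen with earlier results of these data known. Genes named from a list are those reaching 5 FPKM in either library with the 3 largest rises or 2 largest falls of at least 2-fold, known partners and regulators of the plasma proteins, flanking genes, and the 5 genes nearest to FGB. PROC, SERPINA5, ITIH4, C2, C3, PROX1, ZFP42, CXCR4, CLDN6, GSC, CLIC6 and AQP1, which make up small counts, and APOA1, APOE, AMN, CDH1, EPCAM, SERPING1, HSPA5, CYP3A7, SOX2, CDX2, TFAP2C, GATA3, HAND1, CGA, CGB3, GCM1, ELF5 and SERPINA11 were named after their values were seen. Some genes of the lists are counted but not reported here by name. Computations used Python 3.11.15, numpy 2.4.6 and pandas 2.3.3, and plots used matplotlib 3.10.9.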

Additional observations from a re-analysis of the deposited data

How the results depend on the processing

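All alternatives were processing choices on the same 2 libraries, and they say nothing of the spread between cultures. Of 79 values under 9 settings, 52 stayed close to the reported one and 27 moved. A count was called close within 1.5-fold of the reported one, and a median only when nearly unchanged. The 7 plasma protein genes at least 2-fold higher became 5 with a pseudocount of 1 FPKM, which was still called close. Most of the values are counts, which cannot change sign. The medians could, and they stayed positive. No paired analysis was possible because each genotype has 1 library, and none could be left out. The median log2 fold change of the plasma protein genes was 1.90 with a pseudocount of 1 FPKM, 3.57 with 0.01 FPKM, 1.89 when unfiltered, 3.49 under a minimum of 5 FPKM, 3.27 with equal FPKM sums, 3.14 with a median log2 ratio of 0 and 3.15 with TMM scaling. The count of these genes at least 2-fold higher was 3 with the 5 FPKM filter, which leaves 3 of them, and 4 at a 4-fold threshold. For all genes that count was 623 with a pseudocount of 1 FPKM, 1567 without a filter, 554 with the 5 FPKM filter, 2353 at 1.5-fold and 194 at 4-fold. Coagulation genes numbered 3 with a pseudocount of 1 FPKM, 2 with the 5 FPKM filter and 3 at 4-fold. Carrier and acute phase genes numbered 4 without a filter and at 1.5-fold, and 0 with a pseudocount of 1 FPKM, the 5 FPKM filter, a median ratio of 0, TMM scaling and 4-fold. Hepatocyte genes numbered 5 without a filter and 1 with the 5 FPKM filter, and secretory pathway genes numbered 1 at 1.5-fold.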

Other observations

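Genes of definitive endoderm, the layer that forms the gut and liver, differed in both directions. Of 12 compared, 5 were at least 2-fold higher in MEIS2-/- cells, namely FOXA1, SHH, KIT, CLDN6 and CXCR4, and 3 were at least 2-fold lower, namely HHEX, LHX1 and GSC, with a median log2 fold change of 0.55. LHX1, a factor of the organizer region, was at 20.61 FPKM in the WT library and 5.93 FPKM in the MEIS2-/- one, and SHH, a signalling protein of gut epithelium, at 0.83 and 5.57 FPKM. TTR is also a known product of the choroid plexus. Of 7 choroid plexus and neural genes compared, 1 was at least 2-fold higher, TUBB3, at 121.80 and 259.10 FPKM, and 3 were at least 2-fold lower, OTX2, CLIC6 and AQP1, with a median of -0.49. OTX2, a factor of the anterior embryo, was at 11.38 FPKM in the WT library and 3.30 FPKM in the MEIS2-/- one.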
